A study of Homo sapiens with 8 samples.

Results

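The genes described are 10 transcripts of the ATF4 stress pathway, ATF4, ATF3, ATF5, DDIT3, TRIB3, CHAC1, ASNS, SESN2, PPP1R15A and CEBPB, in human neuroblastoma cells given ciclopirox. They were taken by name from 19774 genes on an Affymetrix expression array, with earlier results of these data known. All 54715 probe sets were searched, and 19 carried exactly 1 of these symbols. Each gene was read from the probe set with the highest mean over all arrays, and the others served as a check. All 10 passed the filter on low levels that left 14517 genes for testing.

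The study measured total RNA from 4 neuroblastoma lines on 8 arrays, 1 array per line and treatment, after 48 h in vehicle or in 2.5 µM ciclopirox, an iron-chelating antifungal. The lines, all grown in RPMI medium, were SKNAS, labelled c-Myc, NB1691 and SKNBE2, both labelled N-Myc, and SKNAS/shHIF1a, a stable knockdown derivative of SKNAS that targets HIF1A, the oxygen-regulated transcription factor, and is also labelled N-Myc. The derivative is 1 line, and no array of a control knockdown was used here. Lines served as replicates, with SKNAS and its own derivative counted as separate lines, so the 4 lines are not independent of each other. The labels name no separate cultures, so p-values measure only the spread between these samples.

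Cells under amino acid shortage, misfolded protein, haem shortage or mitochondrial stress phosphorylate the initiation factor eIF2α. General translation then slows while translation of ATF4 mRNA increases, so the ATF4 protein can accumulate with little difference in its mRNA. ATF4 binds DNA together with C/EBP-family partners and switches on other transcription factors (ATF3, ATF5, DDIT3), feedback genes (TRIB3, PPP1R15A) and genes of amino acid and redox metabolism (ASNS, CHAC1, SESN2).

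The sites through which ATF4 is known to act carry the C/EBP-ATF composite letters TGATGNAA. These were searched on both strands in RefSeq promoter windows of build GRCh38.p14, from 250 bases before to 50 after each start, and found in 3.62% of 35116 windows and in 4.46% of 27305 genes. All 10 genes matched a window, 19 windows in all, and ATF3, ASNS and CHAC1 held the letters. The cyclic AMP response element TGACGTCA, to which ATF and CREB proteins bind, was searched after the sequences had been seen. It was present in 1.85% of windows and 2.25% of genes, and among the 10 genes in PPP1R15A. The 4 matches are shown because they are the letters in these windows that ATF-family factors are known to read, with the match in capitals and 40 bases on each side. ATF3 lies on the plus strand (chr1:212565176-212565263, match 191 bases before the start), ASNS on the minus strand (chr7:97872429-97872516, 68 bases before), CHAC1 on the plus strand with the match in reverse orientation (chr15:40953222-40953309, 209 bases before) and PPP1R15A on the plus strand (chr19:48872323-48872410, 58 bases before).
ATF3: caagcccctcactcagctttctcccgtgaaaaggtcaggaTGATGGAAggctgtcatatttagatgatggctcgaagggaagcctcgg
ASNS: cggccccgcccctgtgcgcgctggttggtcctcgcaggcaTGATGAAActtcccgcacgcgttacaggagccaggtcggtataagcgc
CHAC1: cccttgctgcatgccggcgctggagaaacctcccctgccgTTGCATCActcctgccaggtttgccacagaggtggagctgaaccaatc
PPP1R15A: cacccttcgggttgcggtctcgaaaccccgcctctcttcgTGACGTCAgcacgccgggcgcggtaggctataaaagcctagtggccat
A match describes the letters only, and a window without one holds no information about the factor.

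Labels were checked first. HIF1A signal (log2) was 12.25 under vehicle and 11.94 under ciclopirox in SKNAS, and 11.71 and 11.09 in SKNAS/shHIF1a, a mean difference of -0.69 ± 0.21 (SE, adjusted p = 0.257). The knockdown line was thus lower under both treatments, without passing the test. MYC signal under vehicle was 10.16 in SKNAS and 9.86 in its derivative, while NB1691 had 2.70 and SKNBE2 had 2.66. MYCN was at 12.05 in NB1691 and 12.48 in SKNBE2, at 5.41 in SKNAS/shHIF1a and at 2.77 in SKNAS, so the derivative labelled N-Myc lay between its parent and the other two. Array medians lay between 3.47 and 3.52. The neuroblastoma marker list (7 on the array, all above the filter) had a mean level of 7.36 to 9.97 under vehicle and 6.55 to 9.66 under ciclopirox, but TH, the first enzyme of catecholamine synthesis, was near background in SKNAS, at 3.15 against 7.16 in NB1691. The lymphoid and myeloid list was at 3.14 to 4.69 under vehicle and 3.12 to 4.68 under ciclopirox, with CD14, CD3E and ITGAM below the filter, but PTPRC, the leukocyte phosphatase CD45, was at 11.53 in SKNAS and 9.57 in its derivative under vehicle. The epithelial list was at 3.28 to 4.64 and 3.31 to 5.0, with CDH1 below the filter, but the keratin KRT18 was at 10.34 and 10.87 in SKNAS and at 6.69 and 7.21 in its derivative. The endothelial list was at 2.93 to 3.40 and 2.87 to 3.68, with CDH5 and KDR below the filter and VWF at 4.94 and 6.15 in NB1691. The Schwann cell list was at 2.81 to 3.33 and 2.82 to 3.09, all 3 genes below the filter, and the mesenchymal list at 5.35 to 9.34 and 5.54 to 9.72.

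Under ciclopirox, 7 of the 10 genes, ATF3, ATF5, DDIT3, TRIB3, SESN2, PPP1R15A and CEBPB, were higher in each of the 4 lines, against 11.8% of all genes tested. The median of the 10 mean differences was 0.94 on the log2 scale, beside -0.01 over all genes. ATF4 mRNA itself differed little (0.15). No gene of the 10 passed limma's test with Benjamini-Hochberg adjustment. Nor did any of the 14517 genes (0%), where the smallest adjusted p was 0.121 and 2599 genes had an unadjusted p under 0.05. At that unadjusted threshold the same 7 genes were higher, against 7.67% of all genes, and none was lower. Vehicle and ciclopirox levels overlapped between groups for all 10 genes, and 1.06% of all genes were higher without overlap. Lines differed both under vehicle and in their ciclopirox differences. Markers also differed with the drug, and their part in the pathway differences was not tested. Of the 7 neuroblastoma markers, 3 were lower at an unadjusted p under 0.05, beside 10.2% of all genes. They were HAND2 (-0.53, adjusted p = 0.165), ISL1 (-0.91, adjusted p = 0.210) and CHGA (-0.81, adjusted p = 0.233), and the list median was -0.40. By line that median was -0.56 in SKNAS, -0.59 in NB1691, -0.94 in SKNAS/shHIF1a and 0.04 in SKNBE2. Of the 6 mesenchymal markers, 2 were higher and 0 lower at that threshold, beside 7.67% and 10.2% of all genes. The 2 were AXL (0.95, adjusted p = 0.188), near background in NB1691 at 2.74 and 2.69, and VIM (0.52, adjusted p = 0.216). COL1A1 (-0.40) and COL1A2 (-0.32) had negative means, and the list median was 0.28. Of the 2 lymphoid and myeloid markers tested, the macrophage marker CD68 was higher at that threshold (0.80, adjusted p = 0.212), with -0.16 in SKNBE2. PTPRC had -1.09 (adjusted p = 0.346), with -1.11 in SKNAS and -3.23 in SKNAS/shHIF1a. In NB1691 and SKNBE2 it was near background, at 3.12 and 3.22 under vehicle. In bulk RNA, fewer cells expressing a gene and less RNA per cell cannot be told apart.

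ATF4, the transcription factor at the centre of the pathway, had log2 signals of 10.87 under vehicle and 10.55 under ciclopirox in SKNAS, 11.79 and 12.21 in NB1691, 11.77 and 12.34 in SKNBE2, and 11.68 and 11.62 in SKNAS/shHIF1a. It was higher under ciclopirox in NB1691 and SKNBE2 and lower in SKNAS and its derivative. Its mean difference was 0.15 ± 0.18 (SE, n = 4 lines, adjusted p = 0.698). SKNAS under vehicle stood 0.81 below its own derivative and further below the other two lines.

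ATF3, a stress-induced repressor and activator of the same family, was at 6.31 and 7.70 (vehicle, then ciclopirox) in SKNAS, 8.88 and 9.13 in NB1691, 7.10 and 8.82 in SKNBE2, and 8.36 and 9.13 in SKNAS/shHIF1a. It was higher in all 4 lines, by a mean of 1.04 ± 0.25 (SE, adjusted p = 0.170), and least in NB1691, whose vehicle level was already the highest of the vehicle arrays. Of the remaining ATF3 probe sets, the brighter gave 0.71, with NB1691 at -0.01, and one near background gave -0.11. With all ATF3 probe sets averaged the mean was 0.55.

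ATF5, which is translated under stress in the manner of ATF4 and serves the mitochondrial stress response, had signals of 5.92 and 6.59 in SKNAS, 7.15 and 9.48 in NB1691, 6.0 and 9.67 in SKNBE2, and 6.62 and 7.29 in SKNAS/shHIF1a. NB1691 and SKNBE2 ended far above the other two lines under ciclopirox, with differences of 2.33 and 3.67, a 12.7-fold excess in SKNBE2, against 0.67 in both SK-N-AS-derived lines. The mean was 1.83 ± 0.52 (SE, adjusted p = 0.191). A second bright ATF5 probe set had 0.78, 2.11, 3.96 and 0.19 in the same order of lines. The remaining probe sets were dim and gave mean differences of 0.16 and -0.10, and the average of all ATF5 probe sets gave 0.91, with 2.14 in SKNBE2.

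DDIT3 (CHOP), the factor that ties prolonged stress to cell death, was at 6.30 and 6.71 in SKNAS, 8.88 and 9.53 in NB1691, 7.45 and 9.38 in SKNBE2, and 6.98 and 8.02 in SKNAS/shHIF1a. All lines were higher with the drug, SKNBE2 most (1.93, or 3.82-fold), and the mean was 1.01 ± 0.26 (SE, adjusted p = 0.174). CEBPB, a C/EBP factor that partners with ATF4, had signals of 10.06 and 11.03 in SKNAS, 10.99 and 11.45 in NB1691, 9.79 and 10.92 in SKNBE2, and 10.52 and 11.87 in SKNAS/shHIF1a. It had the most even differences of the 10 genes over the lines (0.98, 0.46, 1.12 and 1.35, SD 0.38), with a mean of 0.98 ± 0.17 (SE, adjusted p = 0.136).

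**Figure D1:**
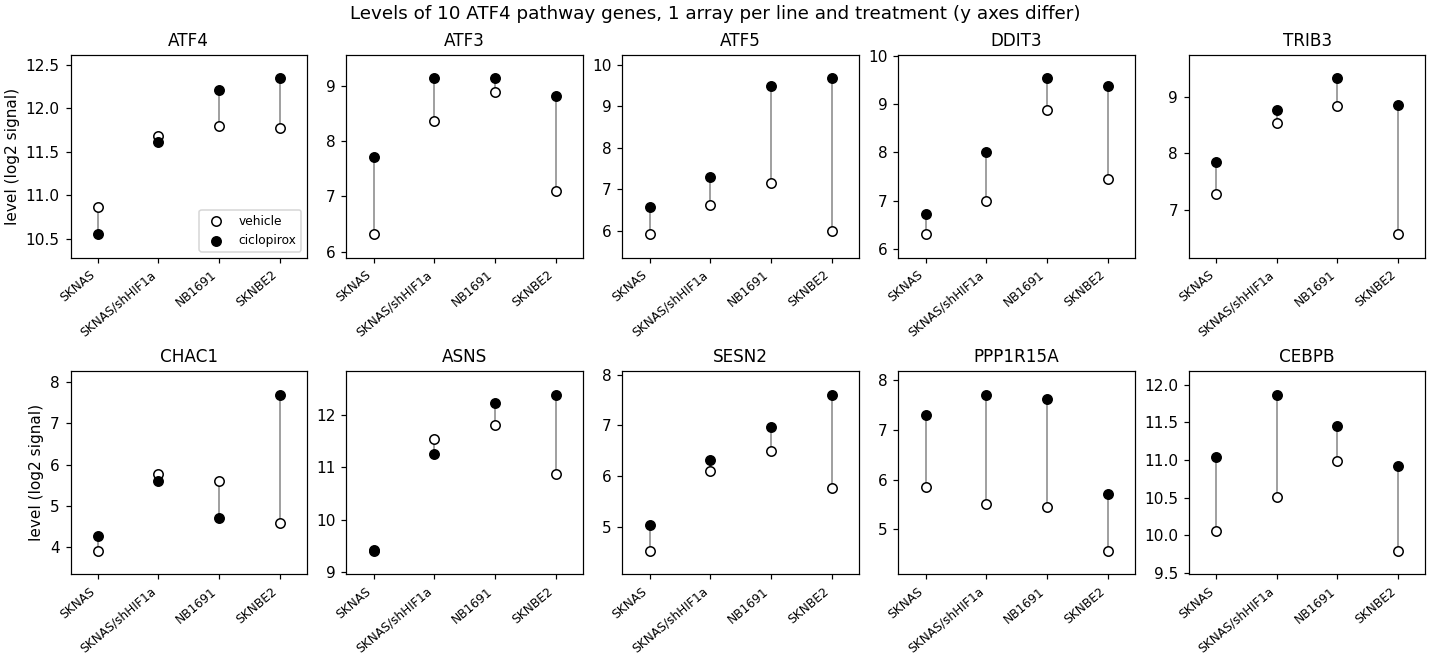
RMA log2 signal of each of the 10 genes in the 8 arrays, with a line joining the vehicle and ciclopirox arrays of each cell line, 1 array per point. PPP1R15A was higher by at least 1.15 in every line, while ATF4 ranged from 0.32 lower in SKNAS (a difference of -0.32) to 0.57 higher in SKNBE2.

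PPP1R15A (GADD34), the phosphatase subunit that removes the phosphate from eIF2α and so ends the translational block, was the member with the smallest p, at rank 16 among all genes tested. Its signals were 5.85 and 7.29 in SKNAS, 5.46 and 7.61 in NB1691, 4.57 and 5.72 in SKNBE2, and 5.52 and 7.71 in SKNAS/shHIF1a. The mean difference was 1.73 ± 0.21 (SE, adjusted p = 0.121), or 3.32-fold. It was at least 2-fold higher in all 4 lines, which held for 18 of 14517 genes (0.124%). The second PPP1R15A probe set gave 1.38, 2.27, 0.96 and 1.76 with a mean of 1.59.

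TRIB3, a pseudokinase induced by ATF4 and CHOP that restrains their activity, was at 7.27 and 7.85 in SKNAS, 8.83 and 9.32 in NB1691, 6.56 and 8.85 in SKNBE2, and 8.54 and 8.76 in SKNAS/shHIF1a. SKNBE2 started lowest and came close to the other high lines, with a difference of 2.29, while the others had 0.57, 0.49 and 0.23. The mean was 0.89 ± 0.35 (SE, adjusted p = 0.272). A second, dim TRIB3 probe set gave 0.09, and the average of both gave 0.49.

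CHAC1, an enzyme that degrades glutathione, was at 3.92 and 4.27 in SKNAS, 5.61 and 4.71 in NB1691, 4.59 and 7.69 in SKNBE2, and 5.77 and 5.60 in SKNAS/shHIF1a. It was 8.57-fold higher in SKNBE2 (3.10) and lower in NB1691 (-0.90), with a mean of 0.60 ± 0.63 (SE, adjusted p = 0.652). ASNS, which makes asparagine, was at 9.41 and 9.42 in SKNAS, 11.81 and 12.22 in NB1691, 10.86 and 12.38 in SKNBE2, and 11.55 and 11.24 in SKNAS/shHIF1a. Its mean difference was 0.41 ± 0.30 (SE, adjusted p = 0.510), with 1.52 in SKNBE2 and -0.30 in the knockdown line. SESN2, a stress sensor that restrains mTORC1 signalling, was at 4.54 and 5.04 in SKNAS, 6.51 and 6.98 in NB1691, 5.77 and 7.60 in SKNBE2, and 6.10 and 6.33 in SKNAS/shHIF1a. It was higher in every line, by a mean of 0.76 ± 0.28 (SE, adjusted p = 0.251). Its second probe set gave 0.64. The second probe set of ASNS did not pass the filter.

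SKNBE2 had the largest difference in 8 of the 10 genes, all but PPP1R15A and CEBPB, which were largest in SKNAS/shHIF1a. The share of all genes with their largest difference in SKNBE2 was not computed. In SKNBE2 all 10 genes were higher (48.9% of all genes) and 9, all but ATF4, were at least 2-fold higher, against 2.11% of all genes. With the probe sets of each gene averaged, 7 of the 10 were at least 2-fold higher in SKNBE2. In NB1691, 9 were higher (47.9%) and ATF5 and PPP1R15A were at least 2-fold higher (3.31%). In SKNAS, 9 were higher (47.2%) and ATF3 and PPP1R15A passed 2-fold (3.38%). In SKNAS/shHIF1a, 7 were higher (47.2%) and DDIT3, PPP1R15A and CEBPB passed 2-fold (5.52%). Some of these calls were marginal. With arrays centred on their medians, ASNS in SKNAS went from 0.007 to -0.028, and DDIT3 in SKNAS/shHIF1a from 1.033 to 0.999. Under quantile normalization 3 genes passed 2-fold in SKNAS. The median difference over the 10 genes was 1.78 in SKNBE2, 0.54 in SKNAS, 0.47 in NB1691 and 0.45 in SKNAS/shHIF1a, while the median of all genes lay between -0.03 and -0.01. These are single arrays, so the differences within a line have no replicate check. Without SKNBE2 the mean differences were 1.22 for ATF5, 0.43 for TRIB3, 0.40 for SESN2, 0.04 for ASNS and -0.24 for CHAC1, and 7 genes had an unadjusted p under 0.05 in the higher direction. That count was 4 without NB1691, 3 without the cell line as a block and 7 with SKNAS averaged with its derivative. The share of all genes at that threshold was not computed for these fits.

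**Figure D2:**
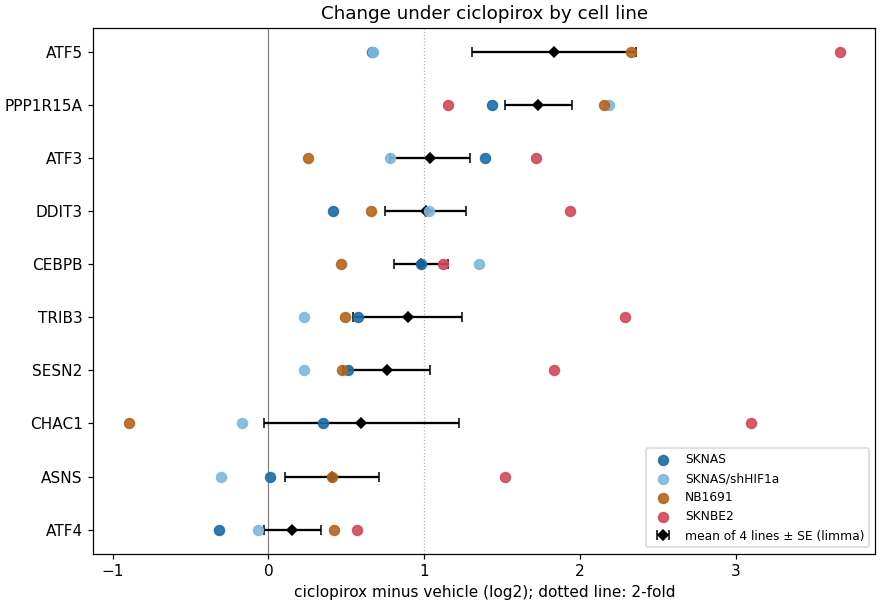
Ciclopirox minus vehicle difference (log2) of each gene in each of the 4 lines as points, with the mean over lines and its limma standard error. SKNBE2 lies furthest to the right for 8 of the 10 genes, with no share of all genes computed for that order. The points of PPP1R15A lie between 1.15 and 2.19.

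The lines differed before treatment. SKNAS had the lowest vehicle level of the 4 lines in 7 of the 10 genes and NB1691 the highest in 8. Under ciclopirox SKNAS was lowest in 8 and SKNBE2 highest in 5. No share of all genes was computed for these orders, so the counts describe the 10 genes only. NB1691, compared with SKNBE2, was higher in all 10 genes under vehicle, by a median of 1.08, where 49% of all genes were higher. Under ciclopirox each line was higher in 5 of the 10 genes and the median difference was 0.01, with 49% of all genes higher in NB1691 again. SKNBE2 was thus below NB1691 in every gene under vehicle and on both sides of it under ciclopirox, with wide gaps in CHAC1 (7.69 in SKNBE2 against 4.71) and PPP1R15A (5.72 against 7.61). Each level is 1 array, so neighbours in these orders have no measured spread.

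SKNAS/shHIF1a, compared with its parent SKNAS, was higher in 9 of the 10 genes under both treatments, all but PPP1R15A, against 32.1% of all genes. ASNS was higher by 2.14 under vehicle and 1.83 under ciclopirox, a mean of 1.98 ± 0.43 (SE, adjusted p = 0.108), or 3.95-fold. ATF3 was higher by 2.04 and 1.43 (1.74 ± 0.36 SE, adjusted p = 0.0992). Averaged over probe sets, the means were 0.93 for ASNS and 0.97 for ATF3. These averages include dim probe sets, at a mean level of 2.57 for ASNS and 3.31 for ATF3, and dim probe sets understate differences. For the other metabolic genes, CHAC1 was higher by 1.85 and 1.33 (1.59 ± 0.89 SE, adjusted p = 0.607) and SESN2 by 1.56 and 1.28 (1.42 ± 0.39 SE, adjusted p = 0.208). The knockdown line was at least 2-fold higher in 5 genes under vehicle (ATF3, TRIB3, CHAC1, ASNS and SESN2, against 3.57% of all genes) and in 6 under ciclopirox (ATF4, ATF3, DDIT3, CHAC1, ASNS and SESN2, against 4.05%).

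ATF4 mRNA was also higher in the knockdown line, by 0.81 and 1.06 (0.94 ± 0.26 SE, adjusted p = 0.205). TRIB3 was higher by 1.26 and 0.92 (adjusted p = 0.485), DDIT3 by 0.68 and 1.30 (adjusted p = 0.356), ATF5 by 0.70 and 0.71 (adjusted p = 0.854) and CEBPB by 0.46 and 0.83 (adjusted p = 0.363). PPP1R15A, the exception, was lower under vehicle (-0.33) and higher under ciclopirox (0.42), a mean of 0.04 ± 0.30 (SE, adjusted p = 0.987). None of the 10 passed limma's adjusted test, where 0.744% of all genes were higher in the knockdown line. At an unadjusted p under 0.05, 6 were higher (ATF4, ATF3, DDIT3, ASNS, SESN2 and CEBPB, against 5.98%). A fit on the 4 arrays of both lines alone called ATF3, CHAC1, ASNS and SESN2 (adjusted p = 0.0449, 0.0449, 0.0233 and 0.0395), among 393 of 14517 genes. With 4 arrays, that fit had little spread of its own to estimate from. The fit on all arrays had another limit. Its SE and p depended on how unevenly the lines differed with ciclopirox, NB1691 and SKNBE2 included. They did not measure the spread of the knockdown differences alone. ATF5, at 0.70 and 0.71, had an SE of 0.74 there, with ciclopirox differences of 2.33 in NB1691 and 3.67 in SKNBE2. Without the ciclopirox array of SKNAS the means were 1.72 for ASNS, 1.98 for ATF3 and -0.07 for ATF5. Without the vehicle array of SKNAS/shHIF1a they were 1.51, 1.57 and -0.07.

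That SKNAS/shHIF1a derives from SKNAS rests on the labels, and the pair of lines differed in other ways too. MYCN was higher in the derivative by 2.47 (adjusted p = 0.00928), and of genes singled out after their values were seen, the mesenchymal marker AXL differed by -4.29 (adjusted p = 0.00713), KRT18 by -3.66 (adjusted p = 0.00397) and PTPRC by -3.02 (adjusted p = 0.174). The mean level of the mesenchymal list was 9.34 in SKNAS and 8.28 in its derivative under vehicle, and 9.72 and 8.69 under ciclopirox. The epithelial list was at 4.64 and 3.82 and then 5.0 and 3.97, and the lymphoid and myeloid list at 4.69 and 4.37 and then 4.68 and 3.89. The share of the pathway differences that goes with them was not tested. With each gene centred over the lines and vehicle set against ciclopirox arrays, each of the pair was closest to the other among different lines (r across genes of 0.612 and 0.570, against 0.898 and 0.817 within a line). With 1 derivative, the knockdown and other differences of that line, its identity included, cannot be told apart.

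**Figure D3:**
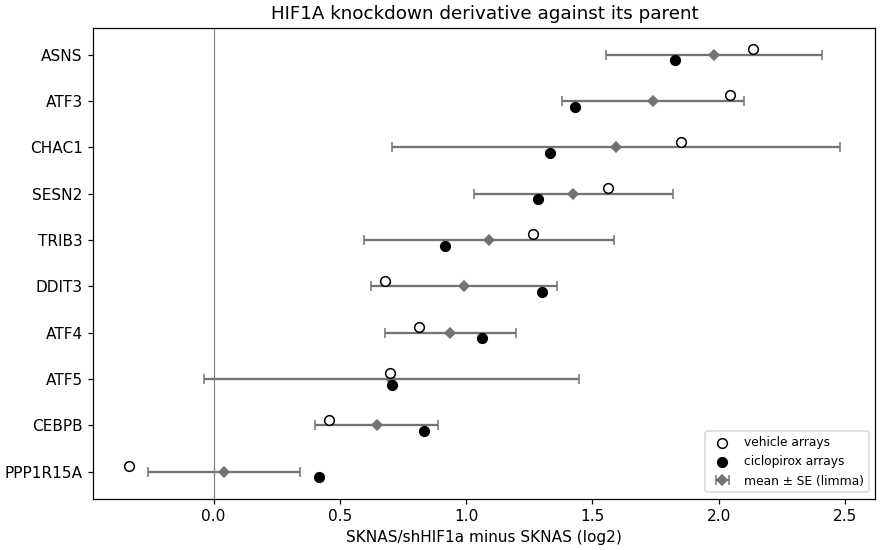
SKNAS/shHIF1a minus SKNAS difference (log2) of each gene under vehicle and under ciclopirox, 1 array per line and treatment. ASNS and ATF3 have the highest means, 1.98 and 1.74, and PPP1R15A is the gene whose points lie on both sides of 0.

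The ciclopirox difference of SKNAS/shHIF1a minus that of SKNAS was 0.75 for PPP1R15A, 0.62 for DDIT3, 0.38 for CEBPB, 0.25 for ATF4 and 0.01 for ATF5. It was -0.61 for ATF3, -0.52 for CHAC1, -0.35 for TRIB3, -0.31 for ASNS and -0.28 for SESN2. Both directions occurred, and each value rests on 4 arrays with no test.

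The SK-N-AS-derived lines, SKNAS and SKNAS/shHIF1a, were also compared with NB1691 and SKNBE2 in the size of the ciclopirox difference. ATF5 was higher by 0.67 on average in the derived lines and by 3.0 in the other lines, a difference of -2.33 ± 0.47 (SE, adjusted p = 0.225). ATF4 had -0.19 and 0.50 (difference -0.69 ± 0.24 SE, adjusted p = 0.401), and ASNS -0.15 and 0.96 (difference -1.11 ± 0.42 SE, adjusted p = 0.425). No gene of the 10 passed limma's adjusted test, which 0.0344% of all genes passed, 5 in number. At an unadjusted p under 0.05 these 3 had lower differences in the derived lines, against 4.97% of all genes. That count was 7 without NB1691 and 1 without any 1 of the other lines. No share of all genes at that threshold was computed for the fits without a line. For the other 7 genes the differences between the classes of line ran from -1.01 (CHAC1) to 0.37 (CEBPB), with adjusted p of at least 0.598.

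Other genes of the pathway were read from lists that were not trimmed for how they moved. The lists, like the 10 genes, were chosen with earlier results of these data known, so their counts are descriptive only. None of their genes passed limma's adjusted test under ciclopirox. Other targets of ATF4 or CHOP (13 of 14 tested) had a median difference of 0.87, with 8 higher and 0 lower at an unadjusted p under 0.05, beside 7.67% and 10.2% of all genes. Of these, 6 were higher in all 4 lines, beside 11.8% of all genes. GDF15, a secreted stress cytokine, had 1.14, 4.35, 4.29 and 2.57 in SKNAS, NB1691, SKNBE2 and SKNAS/shHIF1a (mean 3.09 ± 0.56 SE, adjusted p = 0.139). TNFRSF10B, the death receptor DR5 and a target of CHOP, had 1.17, 1.96, 2.09 and 1.46 (mean 1.67 ± 0.19 SE, adjusted p = 0.121). Both were higher in every line, GDF15 least in SKNAS.

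The kinases of eIF2α and parts upstream of ATF4 (17 tested) had a median of -0.02, with 1 higher and 3 lower at the unadjusted threshold, beside 7.67% and 10.2% of all genes. OMA1, the mitochondrial protease that relays mitochondrial stress to eIF2α, was at -0.79 ± 0.16 (SE, adjusted p = 0.153), lower in all 4 lines, and IMPACT, an inhibitor of the kinase GCN2, at -0.66 ± 0.26 (SE, adjusted p = 0.273). In all 4 lines, 2 of the 17 genes were higher and 3 lower, beside 11.8% and 16% of all genes, so both counts were near the shares of all genes. Other bZIP factors and relatives (13 tested) had a median of 0.16, with 2 higher and 2 lower at the unadjusted threshold, beside 7.67% and 10.2% of all genes. CHAC2, the relative of CHAC1, was at -0.97 ± 0.14 (SE, adjusted p = 0.121) and TRIB1, a relative of TRIB3, at 0.97 ± 0.34 (SE, adjusted p = 0.243).

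Amino acid and one-carbon genes (18 of 20 tested) had a median of 0.21, with 1 higher and 2 lower at the unadjusted threshold, against the same 7.67% and 10.2%. SLC1A4, a transporter of small neutral amino acids, had 0.70, 0.95, 2.57 and -0.52 in the lines (mean 0.93 ± 0.46 SE, adjusted p = 0.343), and SLC3A2, the heavy chain shared by several amino acid transporters, had a mean of 0.80 ± 0.15 (SE, adjusted p = 0.139). PHGDH, the first enzyme of serine synthesis, rose in the knockdown line against its parent, by 2.57 (adjusted p = 0.0150), the only gene of these lists called higher there. The tRNA synthetases (13 tested) had a median of 0.08, with WARS1 at 0.67 (adjusted p = 0.184) and VARS1 at -0.64 (adjusted p = 0.155), 1 higher and 1 lower beside those shares. Other arms of the unfolded protein response (15 tested) had a median of 0.19, with 6 higher and 1 lower, beside 7.67% and 10.2% of all genes. ERN1, the sensor IRE1, had a mean of 1.00 ± 0.34 (SE, adjusted p = 0.232) and DNAJB9, a chaperone cofactor of the endoplasmic reticulum, 0.87 ± 0.17 (SE, adjusted p = 0.153).

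**Figure D4:**
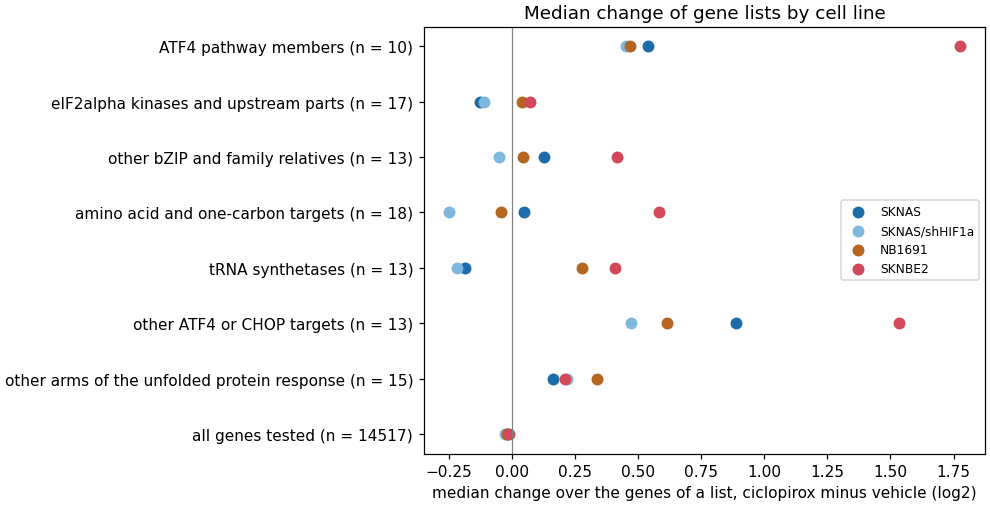
Median ciclopirox minus vehicle difference (log2) over the tested genes of each pathway list and over all genes tested, 1 point per cell line. The points of the 10 genes lie between 0.45 and 1.78, and those of the other ATF4 or CHOP targets between 0.47 and 1.54. Those of the other lists lie between -0.25 and 0.58.

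In SKNBE2 the median of the other ATF4 or CHOP targets was 1.54, of the amino acid genes 0.58, of the tRNA synthetases 0.41 and of the upstream list 0.07. In SKNAS/shHIF1a these medians were 0.47, -0.25, -0.22 and -0.11. The targets were at 0.89 in SKNAS and 0.61 in NB1691.

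Among 6612 genes with an SD of at least 0.5 over the arrays, those with the levels most like the mean profile of the 10 genes over 8 arrays were AKNA (Pearson r = 0.940), TM6SF1 (r = 0.938), DNAJB9 (r = 0.937), SYN2 (r = 0.926), PCBP3 (r = 0.926) and ZNF610 (r = 0.924). The arrays share 4 lines, so the values describe these arrays only. AKNA, for example, was at 4.25 and 4.03 in SKNAS, 6.25 and 7.09 in NB1691, 4.53 and 7.33 in SKNBE2, and 5.40 and 5.51 in SKNAS/shHIF1a.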

How the data were processed

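Total RNA (RNeasy) was hybridised as biotinylated cRNA to an Affymetrix array. Each deposited value is a log2 signal that the authors obtained with RMA, per the submitters' processing notes; the version is not given in the sources used here. RMA's shared normalization assumes like distributions across arrays, so a difference is relative to other genes, and dim probe sets understate differences.

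Of the probe sets, 40920 carried 1 gene symbol, updated through RefSeq Entrez IDs, and 13795 had several or none. Genes whose mean signal reached log2 3.208, percentile 40 over the probe sets, were tested with limma 3.58.1 in R 4.3.3, two-sided, with Benjamini-Hochberg adjustment over 14517 genes and a threshold of 0.05. Ciclopirox against vehicle had the cell line as a block. Knockdown against parent used all 8 arrays with treatment as a covariate, and the difference by origin used the 4 differences per line. Arrays of 1 line deviated together (r across genes of 0.898 in SKNAS, 0.867 in NB1691, 0.885 in SKNBE2 and 0.817 in SKNAS/shHIF1a). The fits were run on simulated data with independent noise and a set shift in chosen genes. The lines here responded unevenly, so that run was a check of the code only.

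Besides the 10 genes and HIF1A, MYC and MYCN, the text names the 2 genes per list with the largest mean difference, since none passed the test, and the 6 genes most like the mean profile. PHGDH and the cell type markers given singly (TH, HAND2, ISL1, CHGA, AXL, VIM, COL1A1, COL1A2, VWF, CD68, KRT18 and PTPRC) were named after their values were seen, outside that rule. The members and lists were chosen with earlier results of these data known. Alternatives were a fit with no block, fits without each line or array in turn, SKNAS averaged with its derivative, other filters and probe sets, array centring, quantile normalization, an intensity trend and only the arrays compared. Some genes of the marker and pathway lists were not analysed here.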

Additional observations from a re-analysis of the deposited data

Results flagged for a closer look

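Of 30 groups of 4 values checked, the vehicle levels, ciclopirox levels and differences of the 10 genes, 2 held a value far from the other 3, where chance alone marks about 1 in 20 such groups. ATF4 under vehicle was at 10.87 in SKNAS, with a gap to the next line of 0.882 of the whole range. TRIB3 had a ciclopirox minus vehicle difference of 2.29 in SKNBE2, with a gap of 0.832 of the range.

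ATF4 was marked because its differences had opposite signs, negative in both SK-N-AS-derived lines and positive in NB1691 and SKNBE2. The difference between these classes of line was -0.69, and limma's test of it gave an adjusted p = 0.401.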

How the results depend on the processing

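No gene of the 10 was called at an adjusted p under 0.05 for ciclopirox under any alternative fit, where an unadjusted threshold called 7. The count of 7 higher genes at an unadjusted p fell to 3 with no cell line block (no pairing) and ranged from 4 to 7 when 1 line was left out. The block changed no other call. Leaving out a line moved the CHAC1 mean between -0.24 and 1.09. Dim probe sets gave -0.11 for ATF3 (SKNAS -0.0858, SKNBE2 -0.0883) and -0.10 for ATF5 (NB1691 -0.34), and averaging the probe sets of each gene left 1 gene at least 2-fold higher in SKNAS and 7 in SKNBE2, and moved the ATF5 mean to 0.91 and the knockdown differences of ASNS and ATF3 to 0.93 and 0.97. For the knockdown, the 4 arrays alone called 4 genes, and leaving out an array gave 2 to 5 genes at an unadjusted p, with ranges of -0.0746 to 1.48 for ATF5 and -0.26 to 0.34 for PPP1R15A. For the origin comparison, leaving out a line gave 1 to 7 genes, with ranges of -0.64 to 0.83 for ATF3, -1.21 to 0.067 for DDIT3, -3.01 to 0.99 for CHAC1 and -0.34 to 0.66 for PPP1R15A. Fits that left out a line or an array, or used 4 arrays, held fewer samples, and the cause of each move was not tested. Counts at an unadjusted p or at 2-fold under these alternatives have no share of all genes beside them. Whether their moves are particular to the 10 genes was therefore not tested. With 1 array per line and treatment, precision is limited by their number, and probe sets near log2 3.208 carry little signal over background.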
